A study of Mus musculus with 6 samples.

Results

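The genes described here encode the T cell receptor signalling machinery: the CD3 chains, the proximal kinases, and the adaptors, effectors and phosphatases that carry or restrain the signal. The set of 40 genes was chosen by name, and a probe set belonged to it where the array's annotation table gave it 1 of these symbols and no other. It covered 39 of the 40 genes with 91 probe sets, out of 18193 genes and 45101 probe sets in all. Lck, the kinase that starts receptor signalling, had no probe set listed under its single symbol and has no value here. RNA from cultured mouse T cells was measured on 6 arrays, 3 of CD8aa Tregs (titled 2D11, replicates 1, 2 and 4) and 3 of OT-1 CD8aa+TCRab+ T cells (titled OvacD8, replicates 1, 2 and 3). By its title, the series concerns regulatory T cells restricted by the class Ib molecule Qa-1. The OT-1 receptor is a transgene that recognises a peptide of ovalbumin. Both kinds of cell are labelled as T cell clones and were kept with their own antigen, antigen-presenting cells and IL-2, so a group may be repeats of a single line. Mouse strain, age and time since the last antigen exposure are not given in the sources used here. No label says that replicates came from separate cultures, and the p-values below then measure only the spread between these arrays.

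The receptor itself has no enzyme activity. When it binds its ligand, Lck phosphorylates the CD3 and zeta chains, Zap70 docks there and phosphorylates Lat and Lcp2 (SLP-76), and these adaptors assemble a complex that activates Plcg1, Vav1 and the Ras exchange factors, leading to calcium entry, NFAT and kinase cascades. Phosphatases, the kinase Csk, ubiquitin ligases of the Cbl family and diacylglycerol kinases hold the same pathway back. All genes of the set are known from conventional T cells, and the comparison asks in which of them the regulatory line differs from the OT-1 line.

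Values are RMA values on the log2 scale that were centred on the median of each probe set over the 6 arrays. They show differences between arrays and carry no level, so one gene cannot be called more abundant than another. A gene's value is the mean of its probe sets. The word passed stands for a limma p below 0.05 after Benjamini-Hochberg adjustment over all genes, and differences are CD8aa Treg minus OT-1. In such bulk samples, fewer cells with a transcript and less of it per cell cannot be told apart. OT-1 replicate 1 stood apart from OT-1 replicates 2 and 3. Over the 39 genes it correlated with them at r = 0.70 and 0.74, while they correlated at 0.97 with each other and the CD8aa Treg arrays at 0.91 to 0.93. It stood further apart over all probe sets that spanned at least 0.1, controls left out. There it correlated with OT-1 replicates 2 and 3 at 0.298 and 0.353. Those 2 arrays correlated at 0.855 with each other, and the CD8aa Treg arrays at 0.614 to 0.671. These correlations run across genes or probe sets of shared arrays and are a description. In 17 of the 39 genes OT-1 replicate 1 lay nearer to the CD8aa Treg mean than to the mean of the other OT-1 arrays. The count includes genes in which these means hardly differ, such as Cd3e (0.01 and 0.02) and Prkcq (-0.08 and -0.09). The share over all genes was not computed. Over the 39 genes it correlated at -0.86 to -0.83 with the CD8aa Treg arrays, but the centring of each probe set favours negative values. In 0 of the 9 genes that passed did it lie nearer to the CD8aa Treg mean. Passing itself favours genes in which the OT-1 arrays lie together, so neither value tells what this array resembles. The poly-A spike-in controls put OT-1 replicate 1 on the side of the CD8aa Treg arrays, with means of -0.09 to 0.73 on the CD8aa Treg arrays and 0.44 on OT-1 replicate 1, but -1.41 and -2.13 on OT-1 replicates 2 and 3. Values without OT-1 replicate 1, or from a fit that adjusts for the spike-in side of each array, are given where they change a call. In the adjusted fit, the group difference is the CD8aa Treg mean minus OT-1 replicate 1 alone. A call kept, gained or lost there therefore rests on that single OT-1 array. Once OT-1 replicate 1 is left out, group and spike-in side cannot be told apart.

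Marker genes were listed for T cells and for other cells that the cultures could hold. All 6 measured T cell markers belong to the signalling set itself, so they are no separate check of the cells. None of them passed (2 at an unadjusted p under 0.05), with summed values of -0.29 to 0.69 on the CD8aa Treg arrays and -0.74 to 0.54 on the OT-1 arrays. None of the 6 B cell markers passed (0 at an unadjusted p under 0.05), and 4 of them spanned less than 0.1 over the 6 arrays. None of the 8 myeloid and dendritic markers passed (2 at an unadjusted p under 0.05), but their sum ran from -1.14 to 0.13 on the CD8aa Treg arrays and from 1.36 to 4.97 on the OT-1 arrays. These markers did not move together. Cd68 was high on OT-1 replicates 2 and 3, with a smaller rise of Cd14 (0.66 and 0.75). On the same arrays Lyz2 was low (-1.91 and -2.82, against -0.49 to 0.59 on the CD8aa Treg arrays) and Csf1r was near 0. On OT-1 replicate 1, Lyz2 (2.70) and Csf1r (1.17) were high, and Spi1 was at 0.40, against -0.08 to 0.29 on the other arrays. Cd68 (0.48) and Cd14 (0.20) were less high on that array than on OT-1 replicates 2 and 3. Adgre1, Itgam and Flt3 were each at 0.01 on it. Adgre1, Itgam and Flt3 differed by 0.01, 0.06 and 0.08. Of 5 NK cell markers, Klre1 (-1.18) and the granzyme gene Gzma (-10.85) were lower in CD8aa Tregs. Ncr1 (0.01) and Klra8 (0.03) hardly differed, and Fcer1g did not pass (-0.66). Like Lyz2 and Csf1r, Fcer1g was high on OT-1 replicate 1 (1.80, against -0.03 to 0.11 on the other arrays). The sum ran from -5.62 to -5.48 on the CD8aa Treg arrays and from 6.84 to 7.31 on the OT-1 arrays. It rests mostly on Gzma and so does not measure NK cell content. The part of these cells in the differences below was not tested.

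Most of the signalling machinery did not pass the test, and a few members differed strongly. Of the 39 genes, 2 were higher in CD8aa Tregs (Cd6 and Cblb) and 7 were lower (Txk, Ubash3b, Lcp2, Cd247, Sla2, Csk and Nfatc1). These 9 are 23.1% of the set, against 6.67% of all genes (3.3% higher and 3.37% lower). At an unadjusted p under 0.05 there were 8 higher and 8 lower genes, against 19.9% of all genes. All 39 genes spanned at least 0.1 over the arrays, which 67% of all genes did, and 9.95% of the genes that spanned this much passed. At least 2-fold, 4 genes passed, namely Txk, Ubash3b, Lcp2 and Cd6, against 2.6% of all genes. The groups did not overlap in 18 of the 39 genes (46.2%), against 23.3% of all genes and 34.1% of those that spanned at least 0.1. The median difference of the set was -0.04 on the log2 scale (0.01 over all genes) and the median size of a difference was 0.25 (0.06 over all genes). The number of genes called depended on single arrays: it was 4, 6 and 6 without CD8aa Treg replicates 1, 2 and 4, and 15, 6 and 4 without OT-1 replicates 1, 2 and 3. In these fits 2.87% to 3.83% of all genes passed, or 17.2% without OT-1 replicate 1.

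**Figure D1:**
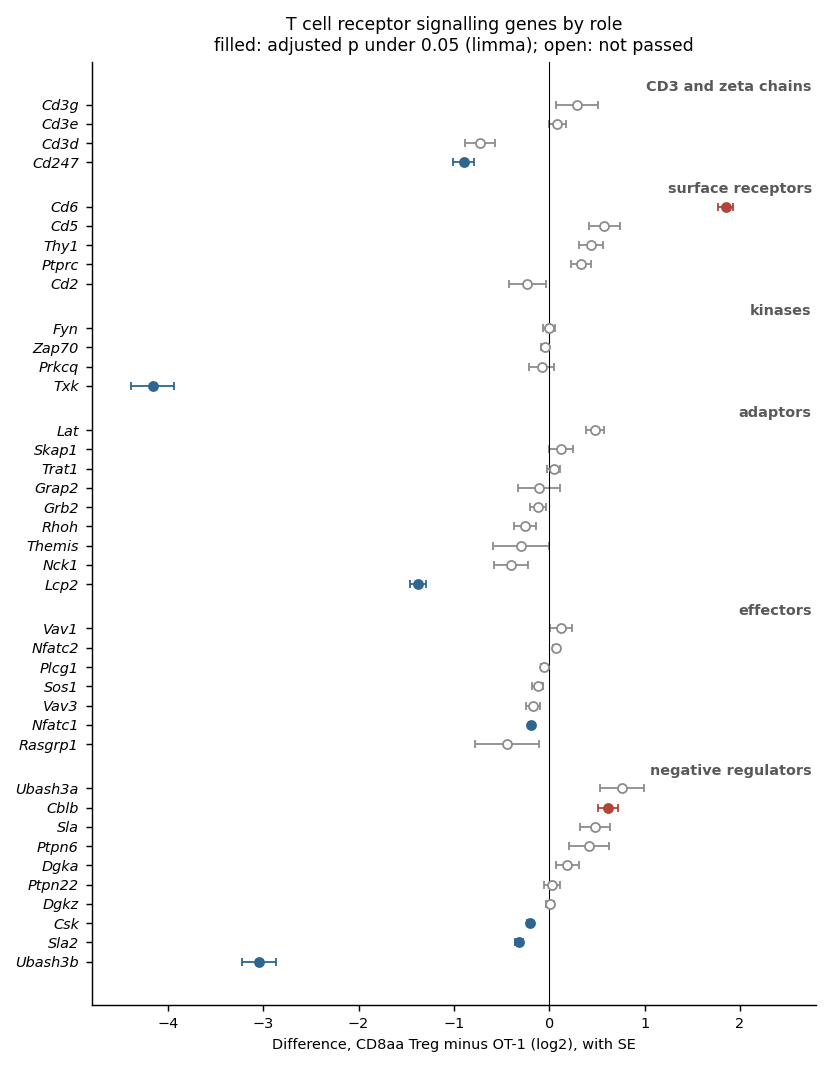
Difference between CD8aa Treg and OT-1 arrays (log2, x axis) for the 39 measured genes, grouped by role, with the standard error of the fit as bars (n = 3 arrays a group). Filled points passed the test (red higher, blue lower in CD8aa Tregs). Txk (-4.16), Ubash3b (-3.05) and Lcp2 (-1.38) lie far left and Cd6 (1.85) far right, while most other genes lie within 1 of 0.

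The chains of the receptor complex did not move together. Cd247, the zeta chain that carries most of the phosphorylation sites of the complex, was lower in CD8aa Tregs. Its values were -0.30, -0.34 and -0.56 on the CD8aa Treg arrays (replicates 1, 2 and 4, in this order throughout), against 0.33, 0.63 and 0.54 on the OT-1 arrays (replicates 1, 2 and 3). All 3 CD8aa Treg arrays lay below all OT-1 arrays, and the difference was -0.90 ± 0.11 (SE, n = 3 arrays a group; adjusted p = 0.0151), or 1.86-fold. The call was lost without CD8aa Treg replicate 1 (adjusted p = 0.0536) or 2 (0.0593) and without OT-1 replicate 2 (0.0616) or 3 (0.0666), and by its widest probe set (0.123). Probe sets of Cd247 did not show the same difference, as described further on.

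Cd3d, Cd3e and Cd3g lie next to each other in the genome and encode the delta, epsilon and gamma chains. Cd3d stood at -0.21, -0.16 and -0.37 on the CD8aa Treg arrays, against 0.16, 0.60 and 0.69 on the OT-1 arrays. The groups did not overlap, but with a difference of -0.73 ± 0.16 it did not pass (adjusted p = 0.0724). Cd3d passed without OT-1 replicate 1 (-0.89, adjusted p = 0.00577) and under quantile normalization (-0.72, adjusted p = 0.029). It also passed with array weights (-0.85, adjusted p = 0.00583) and with genes spanning less than 0.1 left out (adjusted p = 0.031). In these last fits 19.3% and 13.2% of all genes tested passed. Cd3e had values of 0.07, 0.02 and -0.04 on the CD8aa Treg arrays, against -0.25, 0.05 and -0.02 on the OT-1 arrays (0.08 ± 0.09, adjusted p = 0.761). For Cd3g the CD8aa Treg arrays gave 0.08, 0.10 and -0.05, and the OT-1 arrays -0.73, 0.04 and -0.04 (0.29 ± 0.22, adjusted p = 0.65). In both genes OT-1 replicate 1 was the lowest array, and the other 5 lay close together. Cd3g passed as higher in the fit adjusted for the spike-in side (0.77, adjusted p = 0.0143), in which OT-1 replicate 1 is the lone OT-1 array on its side.

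Among 5 surface receptors, Cd6 was higher and the other 4 did not pass. Cd6 is a scavenger-receptor family protein that binds the adhesion molecule ALCAM and modulates receptor signals. It stood at 0.98, 0.98 and 0.81 on the CD8aa Treg arrays, against -1.03, -0.95 and -0.81 on the OT-1 arrays. OT-1 replicate 1 sided with the other OT-1 arrays here. The difference of 1.85 ± 0.08 (adjusted p = 0.000756), or 3.61-fold, passed with each array left out (highest adjusted p = 0.0105, without OT-1 replicate 2). It rests on 1 probe set. Cd5, the related inhibitory receptor and the genomic neighbour of Cd6, had values of 0.44, 0.08 and 0.29 on the CD8aa Treg arrays, against -0.58, -0.26 and -0.08 on the OT-1 arrays. The groups did not overlap, and the difference of 0.58 ± 0.16 did not pass (adjusted p = 0.132). Thy1 (0.43 ± 0.13, adjusted p = 0.144) and Ptprc, the CD45 phosphatase that keeps Lck active (0.33 ± 0.11, adjusted p = 0.172), also lacked overlap without passing. Without OT-1 replicate 2, Thy1 was counted among the genes that passed. The adhesion receptor gene Cd2 overlapped between the groups (-0.23 ± 0.20, adjusted p = 0.693).

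Txk showed the widest difference of the set. This kinase of the Tec family, also called Rlk, acts downstream of the receptor on Plcg1. Its values were -2.11, -1.77 and -1.96 on the CD8aa Treg arrays, against 1.77, 2.33 and 2.54 on the OT-1 arrays. All CD8aa Treg arrays lay far below all OT-1 arrays, and the difference was -4.16 ± 0.23 (adjusted p = 0.00139), or 17.9-fold lower in CD8aa Tregs. Txk passed with each array left out, with a highest adjusted p of 0.0151 (without OT-1 replicate 2). Like Cd6, it was measured by 1 probe set. Its genomic neighbour Tec, another kinase of the same family, did not pass (-0.41 ± 0.28, adjusted p = 0.579).

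The other 3 measured kinases did not pass. Zap70 had values of 0.01, -0.03 and -0.13 on the CD8aa Treg arrays, against -0.03, -0.01 and 0.02 on the OT-1 arrays. The ranges of the groups overlapped in part, with CD8aa Treg replicate 4 below all OT-1 arrays, and the difference was -0.04 ± 0.04 (adjusted p = 0.734), with 3 probe sets between -0.06 and -0.03. Fyn, a Src-family kinase that can act in the place of Lck, differed by -0.0024 ± 0.0615 (adjusted p = 0.987). Prkcq, the protein kinase C theta that leads to NF-kB, differed by -0.08 ± 0.14 (adjusted p = 0.875). Since levels were removed, a small difference here does not tell whether a gene was strongly expressed in both lines or near background in both.

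Among 9 adaptors, Lcp2 was lower and the other 8 did not pass. Lcp2 encodes SLP-76, the cytosolic scaffold that holds Plcg1, Vav1 and Nck near Lat. It stood at -0.63, -0.61 and -0.71 on the CD8aa Treg arrays, against 0.79, 0.82 and 0.55 on the OT-1 arrays. The difference of -1.38 ± 0.08 (adjusted p = 0.00179), or 2.59-fold, passed with each array left out (highest adjusted p = 0.0167, without CD8aa Treg replicate 1). It averages a pair of probe sets of opposite sign. Lat, the membrane adaptor phosphorylated by Zap70, went the other way, with 0.13, 0.37 and 0.14 on the CD8aa Treg arrays, against -0.13, -0.35 and -0.32 on the OT-1 arrays. The groups did not overlap, and the difference of 0.48 ± 0.10 fell just short of the threshold (adjusted p = 0.0561). Without OT-1 replicate 1, Lat passed as higher (0.55, adjusted p = 0.0242). It also passed with array weights (0.51, adjusted p = 0.013) and with genes spanning less than 0.1 left out (adjusted p = 0.0317). Differences of the remaining adaptors lay between -0.41 for Nck1, which links the receptor to actin, and 0.12 for Skap1, which links it to integrins. Themis, a factor of T cell selection that sets signalling thresholds, had -0.03, -0.19 and -0.01 on the CD8aa Treg arrays, against -0.39, 0.69 and 0.36 on the OT-1 arrays. It did not pass over the 6 arrays (-0.30 ± 0.29, adjusted p = 0.736), and passed as lower without OT-1 replicate 1 (-0.60, adjusted p = 0.0442).

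Of 7 downstream effectors, Nfatc1 was lower and 6 did not pass. Nfatc1, a calcium-regulated transcription factor that T cells induce on activation, stood at -0.07, -0.03 and -0.08 on the CD8aa Treg arrays, against 0.16, 0.10 and 0.13 on the OT-1 arrays. The arrays of each group lay close together, so a difference of -0.19 ± 0.03 passed (adjusted p = 0.0201), although it is only 1.14-fold and none of its 5 probe sets passed alone. Nfatc1 did not pass without CD8aa Treg replicate 1 (adjusted p = 0.0949) or 4 (0.074) or without OT-1 replicate 3 (0.088). The call was also lost when genes spanning less than 0.1 were left out (0.0981), by its widest probe set (0.294), and without _x_at, _s_at and _a_at probe sets (0.197). Its relative Nfatc2 differed by 0.07 ± 0.03 (adjusted p = 0.332). Plcg1, the phospholipase that generates the calcium signal, differed by -0.06 ± 0.03 (adjusted p = 0.371), and the exchange factors Vav1, Vav3 and Sos1 by 0.12, -0.17 and -0.12. Rasgrp1, which activates Ras in response to diacylglycerol, had values of 0.11, -0.20 and -0.41 on the CD8aa Treg arrays, against -0.40, 0.69 and 0.55 on the OT-1 arrays. Its OT-1 replicate 1 value lay with the lowest CD8aa Treg array, and the difference of -0.45 ± 0.33 did not pass (adjusted p = 0.63).

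**Figure D2:**
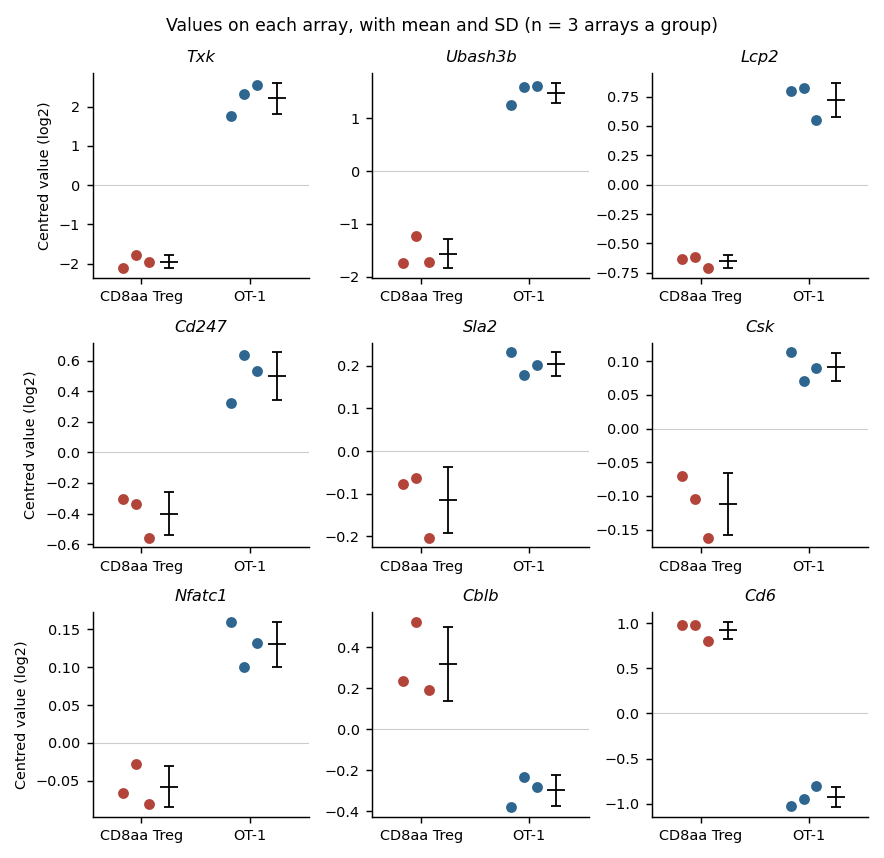
Centred values (log2, y axis) of the 9 genes that passed, with 1 point per array, CD8aa Treg left and OT-1 right, and the mean and SD of each group beside the points. The groups do not overlap in any panel, and the axes differ: Txk differs by 4.16 and Nfatc1 by 0.19.

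Of 10 negative regulators among the 39 genes, Ubash3b, Sla2 and Csk were lower and Cblb was higher, which is 40% of them, against 6.67% of all genes and 9.95% of genes that spanned at least 0.1. Ubash3b encodes Sts-1, a phosphatase that acts on Zap70. Its values were -1.73, -1.24 and -1.71 on the CD8aa Treg arrays, against 1.26, 1.59 and 1.61 on the OT-1 arrays. The difference was -3.05 ± 0.18 (adjusted p = 0.00168), or 8.26-fold lower in CD8aa Tregs, and it passed with each array left out (highest adjusted p = 0.0167, without OT-1 replicate 2). Its neighbour Crtam, an adhesion receptor gene outside the set, was lower as well (-1.84 ± 0.16, adjusted p = 0.00552).

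Ubash3a, the paralogue of Ubash3b that encodes Sts-2, lay on the other side of 0. It had 0.17, 0.32 and 0.55 on the CD8aa Treg arrays, against 0.05, -0.72 and -0.56 on the OT-1 arrays. The groups did not overlap, but OT-1 replicate 1 lay close to the CD8aa Treg arrays and the difference of 0.76 ± 0.23 did not pass (adjusted p = 0.156). It passed without that array (0.99, adjusted p = 0.0159). Whether the paralogues differ from each other was not tested. At 1.28, Ubash3a had the widest range over the arrays among genes that did not pass.

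Smaller differences were measured in the other negative regulators. Csk, the kinase that phosphorylates the inhibitory site of Lck, stood at -0.07, -0.10 and -0.16 on the CD8aa Treg arrays, against 0.11, 0.07 and 0.09 on the OT-1 arrays (-0.20 ± 0.03, adjusted p = 0.0258, 1.15-fold). This call was lost without any single array other than OT-1 replicate 1 (adjusted p = 0.0538 to 0.101) after adjustment for the spike-in side (0.0681), and with genes spanning less than 0.1 left out (0.0868). Sla2, an adaptor that helps remove receptors from the surface, stood at -0.08, -0.06 and -0.20 on the CD8aa Treg arrays, against 0.23, 0.18 and 0.20 on the OT-1 arrays (-0.32 ± 0.04, adjusted p = 0.0225, 1.25-fold). Neither of its probe sets passed alone, and the gene did not pass without CD8aa Treg replicate 1 (adjusted p = 0.0738) or 2 (0.0564), without OT-1 replicate 2 (0.0803) or 3 (0.0885), after adjustment for the spike-in side (0.066), or by its widest probe set (0.214). Cblb is a ubiquitin ligase that raises the need for costimulation. Its values were 0.24, 0.52 and 0.19 on the CD8aa Treg arrays, against -0.38, -0.23 and -0.28 on the OT-1 arrays (0.62 ± 0.10, adjusted p = 0.0356, 1.53-fold). Cblb did not pass without CD8aa Treg replicate 1 (adjusted p = 0.0997) or 4 (0.0659), without OT-1 replicate 2 (0.113) or 3 (0.117), after that adjustment (0.083), under quantile normalization (0.0548), by the median of its probe sets (0.081) or by the widest one (0.0525).

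The remaining negative regulators did not pass. Sla, which promotes degradation of the zeta chain, was at 0.10, 0.10 and 0.11 on the CD8aa Treg arrays, against -0.04, -0.48 and -0.62 on the OT-1 arrays (0.48 ± 0.16, adjusted p = 0.177). Ptpn6, the phosphatase SHP-1, was at 0.11, 0.01 and 0.04 on the CD8aa Treg arrays, against 0.09, -0.53 and -0.65 on the OT-1 arrays (0.42 ± 0.21, adjusted p = 0.38). In both genes OT-1 replicate 1 lay near the CD8aa Treg arrays, and both passed as higher without it (Sla 0.65, adjusted p = 0.00343; Ptpn6 0.65, adjusted p = 0.00464). Dgka and Dgkz, kinases that remove diacylglycerol, differed by 0.19 ± 0.12 and 0.01 ± 0.04, and the phosphatase gene Ptpn22 by 0.02 ± 0.08.

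**Figure D3:**
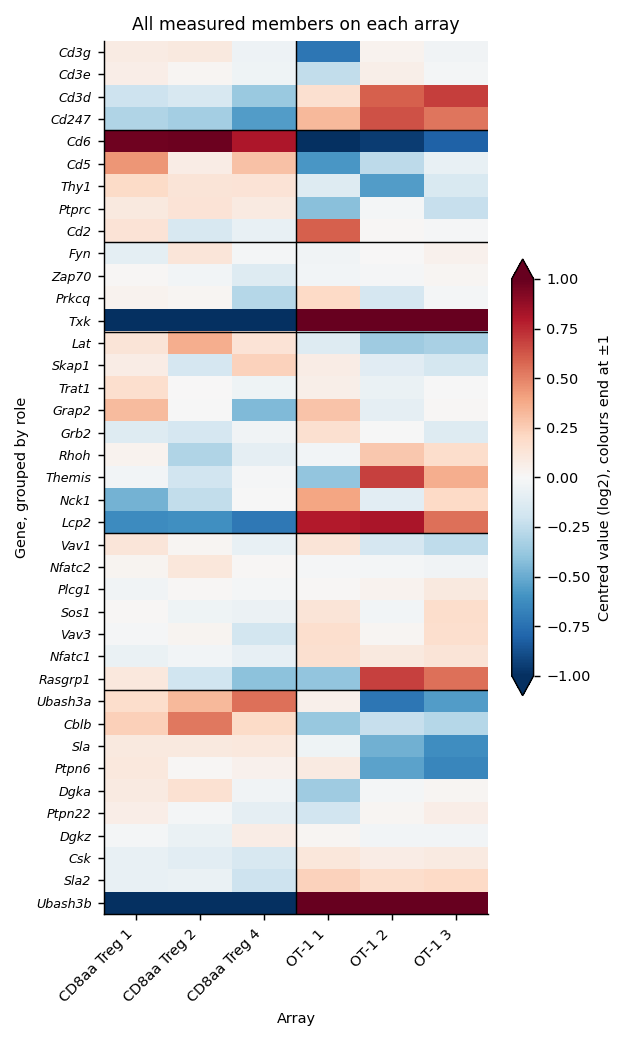
Centred values (log2, colour, ending at ±1) of the 39 genes (rows, grouped by role and sorted by difference) on the 6 arrays (columns). OT-1 replicate 1 resembles the other OT-1 arrays in Txk, Ubash3b, Lcp2 and Cd6, and departs from them in Cd3g, Rasgrp1, Themis and Ptpn6.

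Single probe sets gave a partly different picture. Of the 91 probe sets, 1 was higher in CD8aa Tregs and 10 were lower (12.1%), against 4.06% of all probe sets (2% higher and 2.05% lower). Only 8 of the 91 spanned less than 0.1 over the arrays, against 34.4% of all probe sets, so these shares are not like for like. The probe sets that passed belong to 8 genes. For Cd247, Cd6, Txk, Lcp2, Csk and Ubash3b the gene passed too, while Rhoh and Grb2 passed by 1 probe set and not as genes. Of the 26 genes with more than 1 probe set, 6 had probe sets whose group differences were unequal beyond the spread between arrays (limma's F test over the probe sets of a gene, adjusted over all such genes), against 8.81% of all 9010 genes with several. These 6 were Lcp2, Ubash3b, Rhoh, Cd247, Grb2 and Cblb. For this test, no share was computed among genes that spanned at least 0.1. The number of such genes was 2 without OT-1 replicate 2 and 2 without OT-1 replicate 3.

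Lcp2 was the clearest case (adjusted p = 3.87e-07 for unequal probe sets). Its probe set 1418642_at stood at -1.43, -1.38 and -1.47 on the CD8aa Treg arrays, against 1.63, 1.79 and 1.38 on the OT-1 arrays (-3.02 ± 0.11, adjusted p = 0.000686). Probe set 1418641_at ran the other way, at 0.17, 0.15 and 0.04 on the CD8aa Treg arrays, against -0.04, -0.15 and -0.27 on the OT-1 arrays (0.27 ± 0.07, adjusted p = 0.144). The lower Lcp2 value thus comes from 1418642_at alone, and the data do not tell which probe set follows the SLP-76 transcript. In Cd247, 1420716_at (-1.09 ± 0.07, adjusted p = 0.00402) and 1426396_at (-1.25 ± 0.08, adjusted p = 0.00399) passed. For 1452539_a_at the difference was as large but more variable (-1.27 ± 0.34, adjusted p = 0.148), and 1426079_at spanned less than 0.1 over all arrays. The Cd247 gene value, averaged over all 4, is therefore nearer 0 than any of the 3 responsive ones.

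The 3 Ubash3b probe sets were alike in sign and differed in size. The differences were -4.02 ± 0.18 for 1429475_at (adjusted p = 0.00109), -3.23 ± 0.38 for 1436805_at (adjusted p = 0.0192) and -1.89 ± 0.07 for 1435703_at (adjusted p = 0.000641). Rhoh encodes a GTPase-like protein that brings Zap70 to Lat. Its probe set 1429319_at stood at -0.44, -0.70 and -0.45 on the CD8aa Treg arrays, against 0.44, 0.61 and 0.63 on the OT-1 arrays (-1.09 ± 0.09, adjusted p = 0.00816), while its other probe sets differed by -0.03 and 0.35 and the gene did not pass (-0.25 ± 0.12, adjusted p = 0.337). Grb2 encodes the adaptor that brings Sos1 to Lat. Its 1449111_a_at stood at -0.26, -0.34 and -0.31 on the CD8aa Treg arrays, against 0.31, 0.26 and 0.28 on the OT-1 arrays (-0.58 ± 0.03, adjusted p = 0.00135), and 1418508_a_at differed by 0.34 ± 0.16 in the opposite direction (adjusted p = 0.42). As a gene, Grb2 was at -0.12 ± 0.08 (adjusted p = 0.593). Cblb had 3 probe sets at 0.33, 0.36 and 1.16, and none passed alone. Wide swings of a single probe set also occurred in genes that did not pass, with 1441761_at of Sla at 1.79 ± 0.69 (adjusted p = 0.312) and 1431698_at of Ubash3a at 1.33 ± 0.43 (adjusted p = 0.226). In both, OT-1 replicates 2 and 3 were far below the other 4 arrays.

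**Figure D4:**
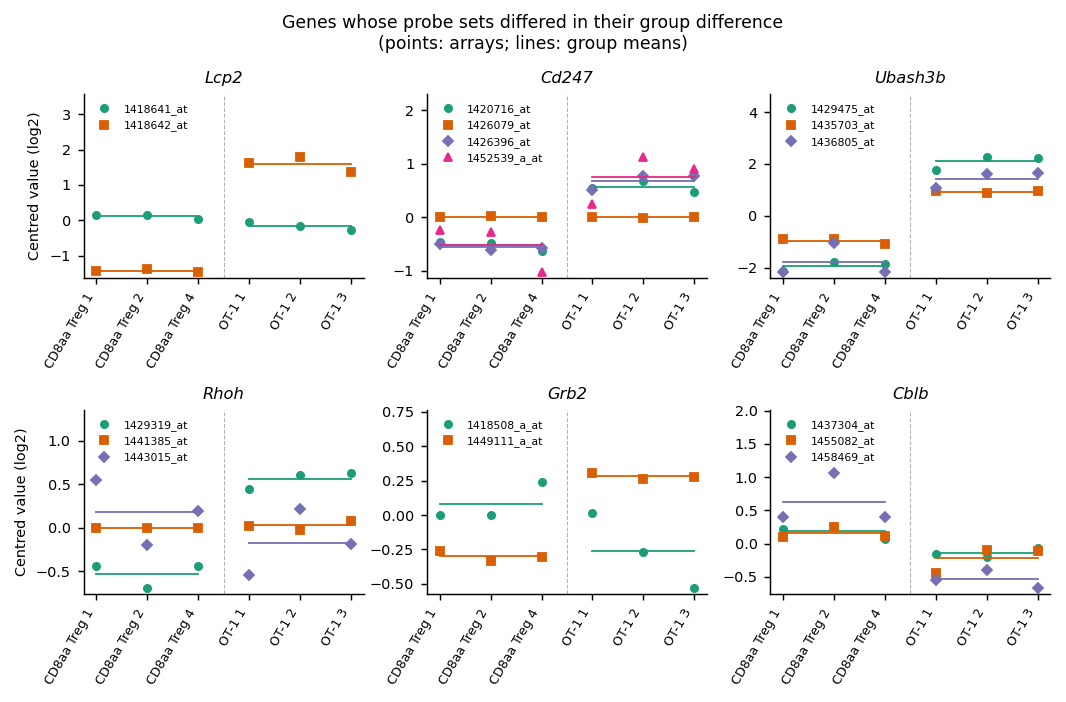
Centred values (log2, y axis) of each probe set on the 6 arrays (x axis) for the 6 genes with unequal probe sets, with group means as lines. In Lcp2, 1418642_at differs by -3.02 while 1418641_at differs by 0.27, and in Cd247 1426079_at stays flat while the others are lower on the CD8aa Treg arrays.

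The sequence before the start site was set beside the 4 genes with the largest negative differences, Txk, Ubash3b, Lcp2 and Cd247, chosen among the 7 lower genes by size. Each run is the 250 bases before the most upstream start that RefSeq gives in the table used here (build GRCm38.p6), 5′ to 3′ on the gene's strand, and capitals mark motif matches. Motifs were searched on both strands, and the first was an ETS core, which reads GGAAGT. The RUNX motif searched was TGTGGT. For the GATA family the letters were AGATAA. No matches overlapped in these runs.
Txk (chr5:72752778-72753027, minus strand): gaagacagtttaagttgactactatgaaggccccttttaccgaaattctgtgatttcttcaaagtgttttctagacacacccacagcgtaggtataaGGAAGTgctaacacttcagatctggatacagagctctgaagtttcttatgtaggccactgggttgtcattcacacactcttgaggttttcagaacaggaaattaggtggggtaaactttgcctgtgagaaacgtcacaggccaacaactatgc
Ubash3b (chr9:41158063-41158312, minus strand): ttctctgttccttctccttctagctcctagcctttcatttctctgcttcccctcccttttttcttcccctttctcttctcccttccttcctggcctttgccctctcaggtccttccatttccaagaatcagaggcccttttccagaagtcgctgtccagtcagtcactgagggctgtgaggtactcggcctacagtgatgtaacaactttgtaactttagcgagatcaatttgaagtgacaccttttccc
Lcp2 (chr11:34046678-34046927, plus strand): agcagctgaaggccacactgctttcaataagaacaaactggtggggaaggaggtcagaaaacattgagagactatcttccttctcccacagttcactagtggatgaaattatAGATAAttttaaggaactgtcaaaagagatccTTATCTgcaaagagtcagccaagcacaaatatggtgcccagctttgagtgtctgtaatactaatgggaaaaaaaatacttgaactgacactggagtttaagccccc
Cd247 (chr1:165788431-165788680, plus strand): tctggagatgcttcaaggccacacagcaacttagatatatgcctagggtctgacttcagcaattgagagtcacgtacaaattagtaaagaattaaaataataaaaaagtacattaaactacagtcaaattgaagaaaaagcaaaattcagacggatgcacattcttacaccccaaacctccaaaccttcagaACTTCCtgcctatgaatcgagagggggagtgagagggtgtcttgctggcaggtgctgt
The Txk run holds 1 GGAAGT match, the Cd247 run 1, the Lcp2 run 2 AGATAA matches, and the Ubash3b run none of the 3 motifs. The table gives a second start for Txk, whose run holds 1 match to each of the 3 motifs, and for Ubash3b, whose run holds 2 AGATAA matches. With these, AGATAA was present before a start of 3 of the 4 genes, and none of the motifs before a start of all 4. This count pools alternative starts of genes chosen by size. No like count per gene was made over all genes, and the shares below are per promoter. Over the 52 promoters that the table gives for 34 members, several of them alternative starts of 1 gene, GGAAGT was found in 40.4%, against 19.7% of all 32851 promoters. TGTGGT was found in 13.5% against 14%, and AGATAA in 9.62% against 9.99%. A match is a description of the letters and not a binding site.

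Other genes of the same pathway gave few calls. Of 60 listed genes, 47 were measured, and 3 were higher and 1 was lower in CD8aa Tregs (8.51%, against 6.67% of all genes). All 47 spanned at least 0.1, and 9.95% of the genes that spanned this much passed. At an unadjusted p under 0.05 (limma) there were 8 higher and 11 lower genes, against 19.9% of all genes. The groups did not overlap in 20 of the 47 (42.6%), against 23.3% of all genes and 34.1% of those that spanned at least 0.1. The median difference was -0.10 on the log2 scale (0.01 over all genes). Nfatc3, another calcium-regulated factor, was higher by 0.88 ± 0.11 (adjusted p = 0.014), Fyb, an adaptor that binds Lcp2, by 0.63 ± 0.06 (adjusted p = 0.00752), and Gab3, a docking protein, by 0.51 ± 0.05 (adjusted p = 0.00828). Pag1, the membrane anchor of Csk, was lower (-0.44 ± 0.05, adjusted p = 0.0131). The probe sets of Pag1 (adjusted p = 2.09e-07) and Nfatc3 (adjusted p = 0.0226) were unequal in their differences. None of the 4 reached a size of 1. Without OT-1 replicate 1 the counts were 7 higher and 10 lower, in a fit in which 17.2% of all genes passed. Pag1 was the lone lower gene over the 6 arrays, and none was lower without CD8aa Treg replicate 1 or without OT-1 replicate 2 (10 and 9 at an unadjusted p under 0.05, limma).

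The arrays that carried each call are seen when they are left out in turn. Cd6, Txk, Ubash3b and Lcp2 passed in all 6 such fits, whereas Cd247, Nfatc1, Sla2, Csk and Cblb each failed in 3 to 5. Since the groups of these 9 genes do not overlap, no change of sign was possible. Without OT-1 replicate 1, the 9 genes passed along with Cd3d and Themis as lower and Lat, Ptpn6, Sla and Ubash3a as higher, giving 6 higher and 9 lower. In the fit adjusted for the spike-in side, the group difference is the CD8aa Treg mean minus OT-1 replicate 1 alone. It was 1.95 for Cd6, -3.71 for Txk, -2.82 for Ubash3b, -1.45 for Lcp2, -0.73 for Cd247 and -0.22 for Nfatc1. For Cd3g it was 0.77, where OT-1 replicate 1 was the lowest array. Csk, Sla2 and Cblb lost their calls there at -0.23, -0.35 and 0.70, each larger in size than over the 6 arrays.

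**Figure D5:**
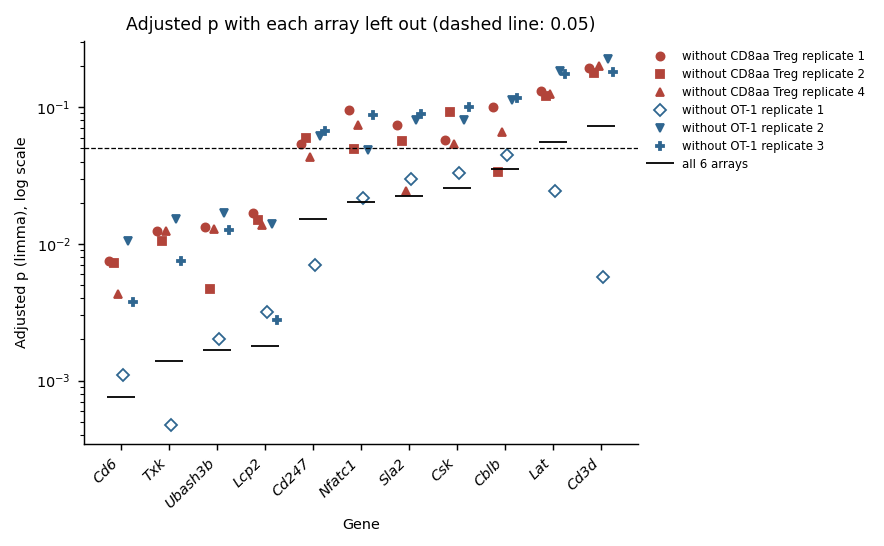
Adjusted p (limma, log-scaled y axis) of the 9 genes that passed and of Lat and Cd3d, with each array left out (red CD8aa Treg, blue OT-1, open diamond OT-1 replicate 1) and over all 6 arrays (bar). Cd6, Txk, Ubash3b and Lcp2 stay below 0.05 in all 6 fits, and of these fits Lat and Cd3d pass in the one without OT-1 replicate 1.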

How the data were processed

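The submitters' processing notes name RMA, with no version. The deposited values are taken as log2 values: each probe set's median across the 6 arrays differed from 0 by at most 5.0e-07, so the values had been centred. The log base and the centring are not given in the sources used here and were read from the values. Per the labels' protocols, the RNA was amplified (Nugen Ovation kit) and the label was biotin. No batch or scan date is in the labels. The number of arrays limits the precision.

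Sample titles and cell type labels gave the groups. After 64 control probe sets were set aside, 34945 probe sets had a single symbol in the platform's annotation table, 932 had several and 9160 were not listed there. Probe sets of a gene were averaged. limma 3.58.1 in R 4.3.3 (linear model with moderated variances, two-sided) compared the groups over 18193 genes and, separately, over 45037 probe sets, each with Benjamini-Hochberg adjustment, and its diffSplice function compared the probe sets of a gene. These fits were tested on simulated data. Promoters and gene order came from RefSeq tables of GRCm38.p6. Alternatives were leaving out each array, other normalizations, filters, ways to join probe sets, array weights, the replicate number as a block and the spike-in side of each array as a covariate.

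The genes and lists were chosen with earlier results of these data known. The rule for values on every array named the genes that passed, genes with a probe set that passed, the CD3 and zeta chains, Zap70 and Lat, and the widest of the rest. Of the other pathway genes it named up to 3 higher and 3 lower. Any further gene named with its values was chosen after they were seen.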

Additional observations from a re-analysis of the deposited data

How the results depend on the processing

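Over all alternatives run, Txk, Ubash3b, Lcp2 and Cd6 kept their direction and passed wherever they were measured; Txk and Cd6 have a single _a_at probe set, so neither has a value once _x_at, _s_at and _a_at probe sets are left out. Median centring and robust variances left the same 9 genes. Leaving out each array in turn gave 1 to 6 higher and 3 to 9 lower genes of the set, 1 to 4 higher and 7 to 13 lower probe sets, 2 to 9 genes with unequal probe sets, and 2 to 7 higher and 0 to 10 lower other pathway genes. The higher genes of the set, 2 over all arrays, numbered 6 with array weights. They numbered 1 each under quantile normalization, the median of probe sets, the widest probe set, _x_at, _s_at and _a_at probe sets left out, and a size of at least 1, which also left 3 lower genes. With array weights 19.3% of all genes passed, against 6.67% in the main fit, so the counts with array weights are to be read beside that share. In the first 4 of the other fits 5.08% to 6.52% of all genes passed, and 13.2% with the span filter. Higher probe sets, 1 over all arrays, numbered 4 after adjustment for the spike-in side, 6 with array weights and 3 among those spanning at least 0.1. Genes with unequal probe sets, 6 over all arrays, numbered 3 after that adjustment and 10 with array weights. Other pathway genes gave 6 higher and 9 lower with array weights and 0 and 0 at a size of at least 1. Lower ones, 1 over all arrays, numbered 4 after that adjustment, 4 under quantile normalization, 4 with the span filter, 2 with the widest probe set and 0 with the median of probe sets (11 at an unadjusted p under 0.05, limma). Fits that leave out samples or features also have fewer of them. The causes of these shifts were not tested. Array weights were estimated from features spanning at least 0.1, since the estimate over all features did not converge.

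Replicate numbers 1 and 2 occur in both groups, and the deviations of same-numbered samples correlated at -0.029 for number 1 and 0.213 for number 2, the highest of the 9 pairs of samples across groups (lowest -0.182). With 2 shared numbers this does not settle a pairing, and the labels give none. The number as a block leaves 1 residual degree of freedom per gene, and 1.11% of all genes then passed. CD8aa Treg replicate 4 and OT-1 replicate 3 have no partner in it, so the group difference comes from the arrays numbered 1 and 2 alone. In this fit 1 gene of the set was higher and 3 lower (Cd6, and Txk, Ubash3b and Lcp2). There, 4 probe sets were lower and 2 genes had unequal probe sets. Of the other pathway genes, 0 were higher and 0 lower (8 and 7 at an unadjusted p under 0.05, limma).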
